A study of Mus musculus with 7 samples.

Results

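The regions described here are the differentially methylated regions (DMRs) that the study assigned to genes for neural cell adhesion molecules and synaptic organisers. They were chosen by gene symbol alone: names that begin with Ncam, Lrrc4, Lrrtm, Cdh followed by a digit, Pcdh, Cntn, Dscam, Nrxn, Nlgn, Slitrk, Flrt, Kirrel, Cadm or Adgrl, and the symbols Lsamp, Ntm, Opcml and Negr1. The rule took 66 of the 1926 DMRs, assigned to 38 genes on 14 chromosomes. The study profiled airway macrophages (AMs) by whole-genome bisulfite sequencing of tagmented DNA (tWGBS), sorted as CD45+ Siglec-F+ CD11c+ cells from 3 Scnn1b-Tg and 4 WT samples of female mice aged 6 weeks. Scnn1b-Tg mice carry the Scnn1b subunit of the epithelial sodium channel under the club cell (CCSP) promoter, which acts in airway epithelium, on a C57BL/6 background, and develop muco-obstructive lung disease, while WT littermates lack the transgene. The comparison asks where the methylation of AMs differs between muco-obstructed and healthy airways.

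For each DMR the deposited table gives 1 mean methylation level per genotype, a fraction from 0 (no read methylated) to 1 (every read methylated). The level of each sample and the read depth per region are unknown, and the labels do not say whether a sample is 1 mouse. No difference below could therefore be set against the spread between samples, and no test was run. The table does not name the genotype of its level columns. The first of them was read as the Scnn1b-Tg column: it is the lower one in as many regions as the study describes with reduced methylation, and every direction below rests on this reading. All regions had been selected by the study for a difference between genotypes, so that each of them differs is no finding about these genes. No marker of cell identity can be read from a list of DMRs, and expression of these genes was not analysed here.

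Cadherins, protocadherins, contactins, IgLON proteins and the Ncam family hold neurons together and guide axons, whereas neurexins, neuroligins, latrophilins and leucine-rich repeat proteins such as the Lrrtm and Slitrk families bind across the synaptic cleft and organise both of its sides. Many of their genes are among the longest of the genome or stand alone in gene deserts, and most are best known from the nervous system. In mammals DNA methylation sits mainly on cytosines of CpG dinucleotides, is high over most of the genome outside CpG islands, and is often low at active regulatory elements.

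Sequences of 6 of these regions are shown, as examples of the settings in which gains and losses were found. Among regions of at most 300 bases that met the naming rule given under data processing, 5 were taken by size of difference with at least 2 of each direction. Longer regions with large changes, such as that of Cdh10, are thus not printed, nor are regions named outside that rule, such as that of Cntnap5a. The strongest gain lay in repeat sequence beyond Lrrc4c, a gain lay in an exon of Ncam2, the strongest loss lay in the desert upstream of Cntn5, and losses lay in a pseudogene inside Cntnap5c and in a CpG-dense stretch assigned to Lrrc40. The sixth, at the Lrrc4 promoter, was added after its values were seen, since it holds the most CpGs. Letters are the plus strand of RefSeq's GRCm38.p6 genome (mm10) from the first to the last CpG of the region, with CpGs in capitals.
Lrrc4c region 2: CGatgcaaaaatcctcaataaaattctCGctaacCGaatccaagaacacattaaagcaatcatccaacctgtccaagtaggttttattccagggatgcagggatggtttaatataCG
Ncam2 region 3: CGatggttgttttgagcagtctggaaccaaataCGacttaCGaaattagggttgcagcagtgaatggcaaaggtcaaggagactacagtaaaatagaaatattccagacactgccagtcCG
Cntn5 region 4: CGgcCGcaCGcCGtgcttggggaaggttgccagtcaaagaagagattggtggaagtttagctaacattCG
Cntnap5c: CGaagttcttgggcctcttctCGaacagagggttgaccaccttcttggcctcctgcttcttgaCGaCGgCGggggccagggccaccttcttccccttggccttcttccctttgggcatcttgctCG
Lrrc40: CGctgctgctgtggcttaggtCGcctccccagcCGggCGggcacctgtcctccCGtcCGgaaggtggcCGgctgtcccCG
Lrrc4: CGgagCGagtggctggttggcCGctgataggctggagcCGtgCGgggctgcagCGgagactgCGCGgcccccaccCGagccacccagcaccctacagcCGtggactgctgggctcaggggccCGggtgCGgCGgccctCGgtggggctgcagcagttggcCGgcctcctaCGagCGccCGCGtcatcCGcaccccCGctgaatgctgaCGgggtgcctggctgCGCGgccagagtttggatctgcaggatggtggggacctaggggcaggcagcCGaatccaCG

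In the same order, these sequences span chr2:97737009-97737125, chr16:81576053-81576173, chr9:11817866-11817935, chr17:57839104-57839229, chr3:158101728-158101807 and chr6:28833481-28833764, each running to the G of its last CpG. The Lrrc4c and Lrrc40 sequences consist of repeat-masked bases only, although the Lrrc40 sequence has a GC content of 75.0% and 8 CpGs in 80 bases. In the Lrrc4 sequence no base is masked, GC is 72.5% and 26 CpGs lie in 284 bases. The Ncam2 region holds 4 CpGs in 121 bases and a GC content of 43.8%. Regions of 1 gene are numbered here along the chromosome.

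Most of the 66 regions were less methylated in Scnn1b-Tg AMs. In 56 regions (84.8%, 95% Clopper-Pearson interval 73.9 to 92.5, counting error over regions only) the level was lower in Scnn1b-Tg than in WT AMs and in 10 it was higher, beside 72.9% lower over all 1926 DMRs. The authors' mean levels had a median of 0.601 in Scnn1b-Tg (0.377 to 0.914) and of 0.834 in WT AMs (0.328 to 0.943), and the median difference, Scnn1b-Tg minus WT, was -0.233. Over all DMRs the medians were 0.591 in Scnn1b-Tg and 0.768 in WT AMs, with a median difference of -0.218. The median absolute difference of the 66 regions, 0.245, was close to the 0.233 of all DMRs. In the 56 regions that lost methylation the median level was 0.580 in Scnn1b-Tg and 0.855 in WT AMs. The 10 that gained had a median Scnn1b-Tg level of 0.770 and a median WT level of 0.526, so their WT level was intermediate.

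**Figure D1:**
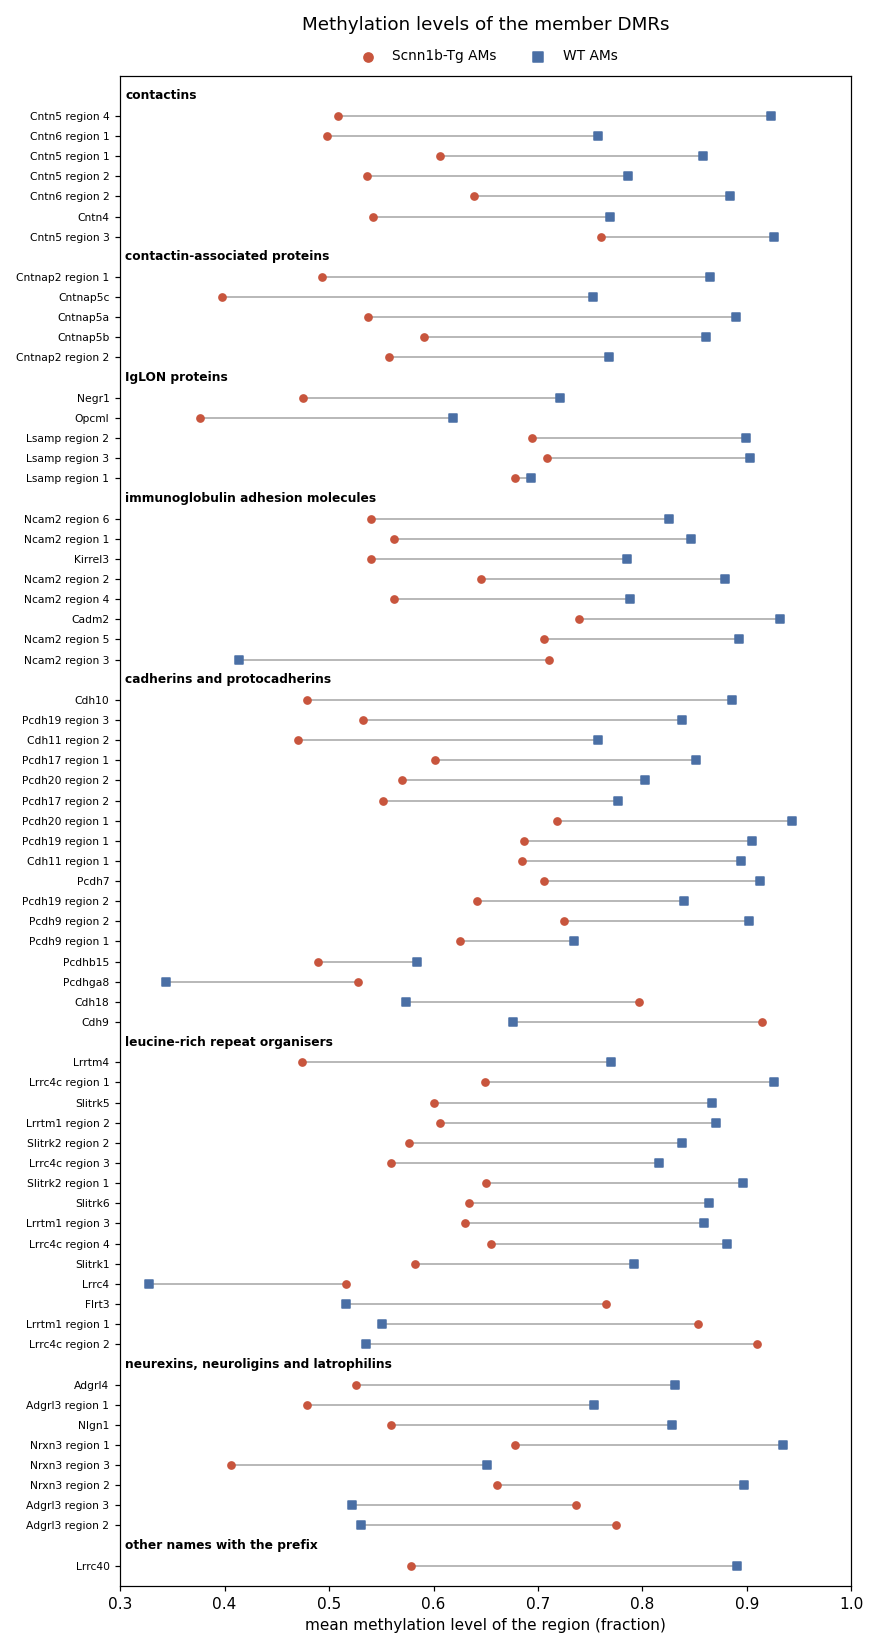
Authors' mean methylation level (fraction, x axis) of the 66 regions in Scnn1b-Tg (circles) and WT AMs (squares), grouped by gene family, 1 line per region with no error because levels per sample are unknown. In 56 regions the Scnn1b-Tg circle lies left of the WT square, and in the 7 contactin regions, the 5 of the contactin-associated proteins and the 5 of the IgLON proteins it always does.

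Direction went together with the WT level. All 38 regions with a WT level of 0.8 or more were lower in Scnn1b-Tg AMs, as were all 794 other DMRs of that level. The WT level is itself part of the difference, and every region was selected for a difference. The direction at high WT levels is thus partly set in advance and is no finding about these genes. Among regions with a WT level under 0.8, 18 of 28 were lower (64.3%), against 554 of the 1066 other DMRs (52.0%). By position, 35 of 41 in distal intergenic sequence were lower (85.4%, other DMRs 77.2%) and 19 of 20 in introns were lower (95%, other DMRs 75.1%). At 200 kb or farther from the transcription start site (TSS), 37 of 43 were lower (86.0%, other DMRs 82.2%), and nearer than 200 kb, 19 of 23 (82.6%, other DMRs 70.0%). The counting intervals of the 66 regions and of the other DMRs overlap in each of these classes, and no test of a difference was made. For comparison, 37 of the 44 DMRs assigned to olfactory and vomeronasal receptor genes, another group best known from neurons, were lower (84.1%).

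The regions lay far from the genes they were assigned to. Their median distance to the TSS was 368 kb, against 46.7 kb over all DMRs. Only 2 regions (3.03%) lay 3 to 50 kb from a TSS, where 41.0% of all DMRs were found, whereas 9 (13.6%) lay 1000 kb or farther, against 1.87% of all DMRs. Promoters (up to 3 kb) held 3 regions (4.55%, all DMRs 11.0%), introns 20 (30.3%, all DMRs 26.6%) and distal intergenic sequence 41 (62.1%, all DMRs 57.7%), and 1 region each fell in an exon and in a 3' UTR. Set against RefSeq gene models, 21 regions lay inside the gene they were assigned to, 19 of them lower, and all 18 that touched no exon of it were lower. A further 4 lay only inside another protein-coding gene, 3 only inside a noncoding gene or pseudogene, and 38 in no gene at all, of which 33 were lower and 5 higher. The 45 regions outside their own gene were a median of 457 kb away from it (1.27 to 1792 kb).

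**Figure D2:**
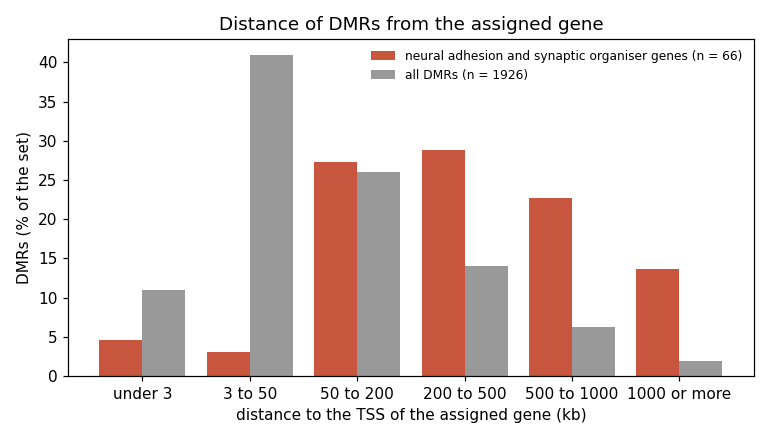
Share of DMRs (% of each set, y axis) by distance to the TSS of the assigned gene (kb, x axis) for the 66 regions of neural adhesion and synaptic organiser genes (left bars) and all 1926 DMRs (right bars). The 66 regions peak at 200 to 500 kb (28.8%) and are rare at 3 to 50 kb (3.03%), where all DMRs peak (41.0%).

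Of the 154 protein-coding RefSeq genes that meet the naming rule, 38 had a DMR (24.7%), against 1330 of 20923 protein-coding genes (6.36%). The share went with the size of the territory, the span between the midpoints to the neighbouring start sites, within which the gene is the nearest one by start site. The family genes are 0.736% of protein-coding genes but hold 2.71% of the genome as territory, and they received 3.43% of the DMRs. Counted per Mb, the 66 regions came to 0.923 per Mb of family territory, beside 0.731 DMRs per Mb of genome. When each DMR was given to the nearest curated start site instead, 56 DMRs lay in family territories (48 of them among the 66), 0.783 per Mb or 1.07 times the genome value, and 46 of these were lower. Inside the family gene bodies there were 22 DMRs, 0.550 per Mb, beside 0.699 per Mb inside all protein-coding genes. The family value divides by summed gene lengths (40.0 Mb), in which the overlapping clustered protocadherins (5.16 Mb of the sum) count bases more than once. It is therefore too low, but with all 5.16 Mb left out of the sum it would still be under 0.699 per Mb. No test of these densities was made. The share of genes with a DMR went with territory size, and by nearest start site the density was close to that of the genome. Among genes with territories of 500 kb or more, 29 of 44 family genes (65.9%) and 205 of 509 other genes (40.3%) had a DMR. Median territories in this class were 1283 kb for the family genes and 700 kb for the others. The DMRs assigned by the study came to 0.849 per Mb for the family genes and 0.666 per Mb for the others. At 100 to 500 kb the shares were 21.7% of family genes and 13.2% of other genes, and under 100 kb 4.60% and 3.29%. By the study's assignments the family shares were thus above those of other genes in each class, and no test was made. The territories use curated RefSeq start sites, so a DMR can lie outside the territory of its assigned gene. Under 100 kb this holds for Pcdh17 (territory 16.5 kb, nearest DMR 420 kb from the TSS) and Pcdh19 (81.6 kb and 415 kb). They are among the 4 family genes with a DMR there, so that class gives no basis for a comparison. Family genes with a DMR had a median length of 420 kb and those without one 82.4 kb. Over all protein-coding genes these medians were 42.3 kb and 17.1 kb.

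**Figure D3:**
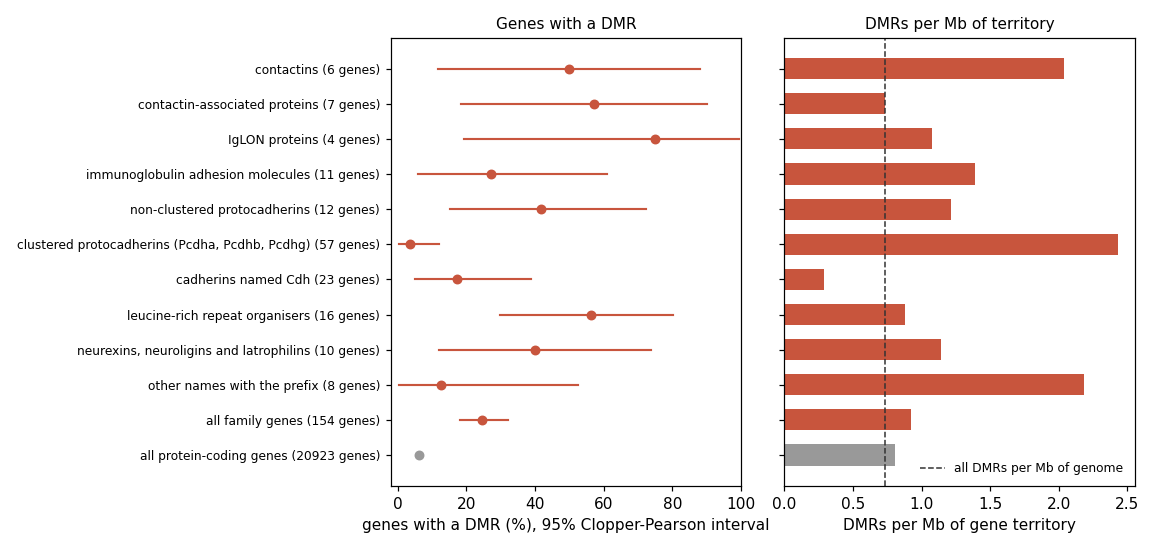
Left, share of genes with a DMR (%, points, with 95% Clopper-Pearson intervals over genes) by family, for all 154 family genes and for all protein-coding genes. Right, DMRs assigned by the study per Mb of gene territory, with the genome-wide density of 0.731 per Mb as a dashed line. The share of genes is above the 6.36% of all genes in every family but the clustered protocadherins (3.51%), and the density of the contactin-associated proteins (0.732 per Mb) lies on the line while that of the cadherins named Cdh (0.288 per Mb) lies below it.

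Among the cadherins and protocadherins, calcium-dependent adhesion proteins, 11 of 92 genes had a DMR, with 14 regions lower and 3 higher in Scnn1b-Tg AMs. The non-clustered protocadherins carried most of them: 5 of their 12 genes (Pcdh7, Pcdh9, Pcdh17, Pcdh19 and Pcdh20) had 10 regions, all lower (medians 0.633 in Scnn1b-Tg and 0.846 in WT AMs). The strongest of these was region 3 of Pcdh19, an X-linked gene whose mutation causes epilepsy in humans, at 0.533 in Scnn1b-Tg and 0.838 in WT AMs, 309 kb beyond the gene. The weakest was region 1 of Pcdh9, at 0.626 in Scnn1b-Tg and 0.735 in WT AMs.

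Of the cadherins named Cdh, 4 of 23 genes had a DMR, and here the directions were mixed, 3 lower and 2 higher. Cdh10, a type II cadherin of the brain, had the second largest loss of the 66 regions, with 0.479 in Scnn1b-Tg against 0.886 in WT AMs at chr15:19324191-19324496, 308 kb from the gene. This Cdh10 region consists of repeat-masked bases only, and the placement of reads in it was not tested. Cdh11, which is best known from mesenchymal cells, lost methylation in both of its regions, 0.684 against 0.895 and 0.470 against 0.757 for Scnn1b-Tg against WT AMs. On the chromosome of Cdh10, 2 further type II cadherins went the other way. Cdh9 had 0.914 in Scnn1b-Tg and 0.676 in WT AMs more than 1000 kb from the gene, and Cdh18 had 0.797 in Scnn1b-Tg and 0.573 in WT AMs at 102 kb upstream.

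Of the 57 clustered protocadherins, whose variable exons give single neurons distinct surface identities, only Pcdhga8 and Pcdhb15 had a DMR. The Pcdhga8 region, 5 CpGs in 73 bp over the start of its variable exon, was higher, with 0.528 in Scnn1b-Tg and 0.344 in WT AMs. It also lies within the spans of other Pcdhg genes and of read-through gene models of the cluster, so the assignment to 1 gene is a choice among overlapping ones. The Pcdhb15 region, 1146 bp long and 1.27 kb upstream of the gene, had 0.489 in Scnn1b-Tg and 0.584 in WT AMs, a difference of -0.0953.

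The immunoglobulin adhesion molecules had 8 regions at 3 of 11 genes, 7 lower and 1 higher. Ncam2, a homophilic adhesion molecule of olfactory axons, had 6 regions, the most of any gene here. In the desert 943 kb upstream, region 1 had 0.562 in Scnn1b-Tg and 0.847 in WT AMs, and intronic region 2 had 0.646 in Scnn1b-Tg and 0.879 in WT AMs. Region 3, the exon whose sequence is shown above, stood out in direction, with 0.711 in Scnn1b-Tg and 0.414 in WT AMs. Only 47.7 kb farther on, region 4 in the 3' UTR had 0.562 in Scnn1b-Tg and 0.788 in WT AMs. Beyond the gene, region 5, with 17 CpGs in 196 bp of repeat sequence, had 0.706 in Scnn1b-Tg and 0.892 in WT AMs, and region 6 had 0.540 in Scnn1b-Tg and 0.825 in WT AMs. Cadm2, a synaptic cell adhesion molecule, had 0.739 in Scnn1b-Tg and 0.931 in WT AMs at 692 kb upstream, and Kirrel3, a nephrin-like adhesion protein, 0.540 in Scnn1b-Tg against 0.785 in WT AMs, in an intron. No DMR was assigned to Ncam1 or Dscam.

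The IgLON proteins are a small family of GPI-anchored adhesion molecules, and 3 of the 4 genes had a DMR. The intronic region of Opcml had the lowest Scnn1b-Tg level of all 66 regions, 0.377, against 0.618 in WT AMs. Negr1 had 0.475 in Scnn1b-Tg against 0.721 in WT AMs, in an intron. Lsamp had 3 regions, the inner pair of which had 0.694 and 0.709 in Scnn1b-Tg against 0.899 and 0.903 in WT AMs. Its region 1, 112 kb upstream, had the smallest difference of all 66, 0.678 in Scnn1b-Tg and 0.693 in WT AMs over 891 bp. With Pcdhb15 it is 1 of 2 regions whose absolute difference is under 0.1, the minimum that the study states for its DMRs. Among all 1926 DMRs, 37 fall under that minimum by their deposited mean levels. No DMR was assigned to Ntm, although its territory spans 1318 kb.

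The contactins, GPI-anchored immunoglobulin proteins of axons, had 7 regions at 3 of 6 genes, all lower. Cntn5 had 4 of them. Regions 1 and 2 in its introns had 0.607 and 0.536 in Scnn1b-Tg against 0.858 and 0.786 in WT AMs, and region 3 upstream had 0.761 in Scnn1b-Tg and 0.926 in WT AMs. Region 4, 913 kb upstream, had the largest loss of the 66 regions, with 0.509 in Scnn1b-Tg against 0.923 in WT AMs (difference -0.414). Of its bases, 84.3% are repeat-masked, and the placement of reads in it was not tested. Cntn6 had 0.498 and 0.639 in Scnn1b-Tg against 0.757 and 0.884 in WT AMs, and Cntn4 had 0.542 in Scnn1b-Tg against 0.769 in WT AMs, in an intron.

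The contactin-associated proteins, neurexin-like partners of contactins, had 5 regions at 4 of 7 genes, all lower, and their median difference of -0.352 was the largest loss among the families with more than 1 region. Cntnap2, which clusters potassium channels beside the nodes of Ranvier, at the juxtaparanodes, had 0.493 in Scnn1b-Tg and 0.864 in WT AMs at chr6:44602548-44602852, 457 kb upstream, and 0.557 in Scnn1b-Tg and 0.768 in WT AMs 22.9 kb beyond its end. Cntnap5a had 0.537 in Scnn1b-Tg and 0.889 in WT AMs, and Cntnap5b 0.591 in Scnn1b-Tg and 0.861 in WT AMs, both in gene deserts. The Cntnap5c region had 0.398 in Scnn1b-Tg and 0.753 in WT AMs and lies in an intron, within the ribosomal protein pseudogene Rpl7a-ps5. Whether reads from copies of this pseudogene elsewhere were placed here was not tested. The upstream Cntnap2 region and the Cntnap5a region consist of repeat-masked bases only, and read placement there was not tested either.

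The leucine-rich repeat organisers, transmembrane proteins that bind presynaptic partners, had DMRs at 9 of 16 genes, 11 regions lower and 4 higher (26.7%), near the 27.1% higher over all DMRs. Lrrc4c, the netrin-G1 ligand, showed both directions. Its intronic region 1 (11 CpGs in 91 bp) had 0.649 in Scnn1b-Tg and 0.926 in WT AMs, while region 2, beyond the gene, had the largest gain of all 66, with 0.909 in Scnn1b-Tg and 0.535 in WT AMs (difference 0.374). Region 2 consists of repeat-masked bases only, and the placement of reads in it was not tested. Regions 3 and 4, farther out, were lower again, with 0.559 and 0.655 in Scnn1b-Tg against 0.816 and 0.881 in WT AMs. Lrrc4, the netrin-G2 ligand, had its CpG-dense region 1.73 kb upstream of the TSS at 0.516 in Scnn1b-Tg and 0.328 in WT AMs. This region also lies within Snd1.

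Lrrtm1, a postsynaptic neurexin ligand, had 3 regions more than 1000 kb from its TSS. The farthest, region 1, gained, with 0.854 in Scnn1b-Tg and 0.551 in WT AMs over 10 CpGs, and regions 2 and 3 had 0.606 and 0.630 in Scnn1b-Tg against 0.870 and 0.859 in WT AMs. All 3 regions are nearer to the body of Ctnna2, the gene of alpha-N-catenin in which Lrrtm1 is nested, than to that of Lrrtm1. Region 1 itself lies within Gm38835, a noncoding gene or pseudogene. The nearest-start assignment is thus not the nearest gene body. Lrrtm4 had 0.474 in Scnn1b-Tg against 0.770 in WT AMs, in an intron. All 5 Slitrk regions were lower: Slitrk1, Slitrk5 and Slitrk6 had 0.582, 0.601 and 0.634 in Scnn1b-Tg against 0.792, 0.867 and 0.864 in WT AMs, and Slitrk2 had 0.651 and 0.576 in Scnn1b-Tg against 0.897 and 0.838 in WT AMs. Flrt3, a ligand of Unc5 receptors and latrophilins, had 0.765 in Scnn1b-Tg against 0.517 in WT AMs, in an intron of Macrod2 112 kb away.

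Neurexins, neuroligins and latrophilins, which meet across the synaptic cleft, had 8 regions at 4 of 10 genes, 6 lower and 2 higher. Nrxn3 had 3 regions in introns, 0.678, 0.660 and 0.406 in Scnn1b-Tg against 0.934, 0.897 and 0.652 in WT AMs, and the 3 differences lay within a narrow range (-0.256 to -0.237). Nlgn1, a neuroligin of excitatory synapses, had 0.560 in Scnn1b-Tg and 0.829 in WT AMs. Adgrl3, a latrophilin, was the 1 gene with several regions in which gains outnumbered losses, with 0.774 and 0.736 in Scnn1b-Tg against 0.531 and 0.522 in WT AMs in regions 2 and 3, and 0.479 in Scnn1b-Tg against 0.753 in WT AMs in region 1. Adgrl4, which the prefix takes but which is an endothelial adhesion receptor rather than a latrophilin, had 0.526 in Scnn1b-Tg and 0.831 in WT AMs. The prefix Lrrc4 also took Lrrc40, which is not a synaptic organiser. Its region, at 0.579 in Scnn1b-Tg and 0.890 in WT AMs, lies inside Lrrc7, the gene of the postsynaptic scaffold densin.

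Where a gene had several regions, these mostly went the same way. The 15 genes with more than 1 region held 43 of the 66, and 11 of these genes had losses only. Ncam2, Lrrc4c, Adgrl3 and Lrrtm1 had both directions. Of 28 pairs of neighbouring regions at the same gene, 21 were both lower, 1 was both higher and 6 were opposite, at a median gap of 418 kb (47.7 to 2721 kb). With 84.8% of regions lower, pairs that are both lower are common whatever their position, and no test was made.

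**Figure D4:**
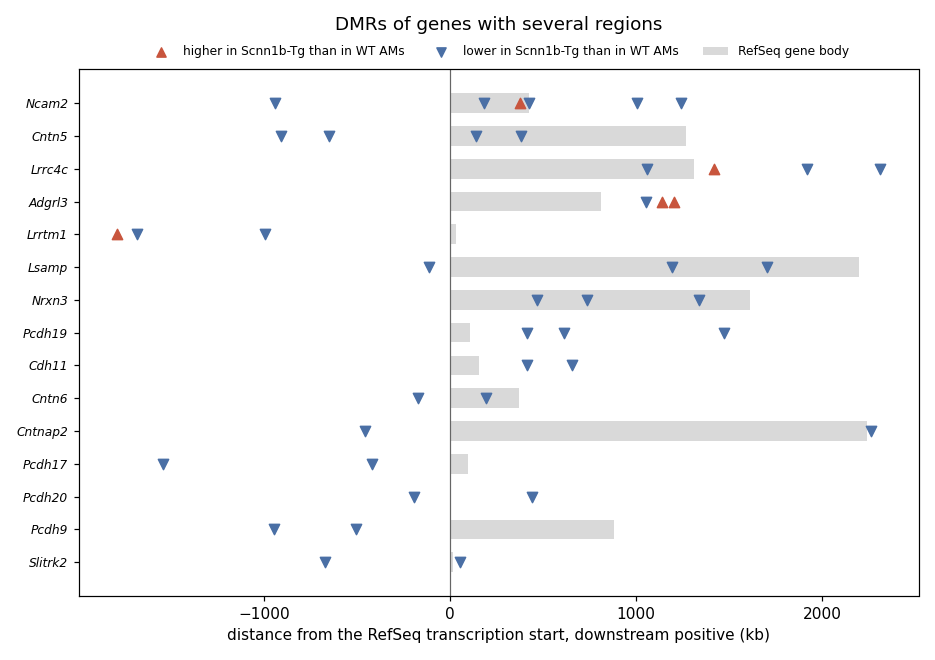
Position of the DMRs of the 15 genes with several regions, as distance from the RefSeq start of the gene in kb (x axis, downstream positive), with the gene body as a grey bar. Triangles pointing up are regions higher and triangles pointing down regions lower in Scnn1b-Tg than in WT AMs. Regions spread up to 1000 kb and more on either side of the gene body, and only Ncam2, Lrrc4c, Adgrl3 and Lrrtm1 show both directions.

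The regions were spread unevenly over chromosomes along with the genes. Chromosome 16 held 10 (9 lower), at Ncam2, Lsamp and Cadm2, which was 15.4% of its 65 DMRs, of which 80% were lower. Chromosome 6 held 10 (8 lower) at 6 genes, with 69.6% of all its DMRs lower. Chromosome 14 held 9, all lower, at Pcdh9, Pcdh17, Pcdh20, Slitrk1, Slitrk5 and Slitrk6, with 84.8% of all its DMRs lower. On chromosome 15, 1 of 3 was lower, with 71.0% of all its DMRs lower.

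The regions had a median length of 215.5 bp, against 191 bp in other DMRs. They held a median of 4 CpGs (4 to 26), against 5 in other DMRs. Exactly 4, the smallest number in the table, were held by 37 of the 66 and by 826 of all 1926 DMRs. Their median CpG density was 2.68 per 100 bp, against 3.22 in other DMRs, and their median GC content was 41.9%, against 49.1%. The surrounding sequence was poorer still: windows of the same length 5 kb to either side of each region had medians of 0.373 CpGs per 100 bp and 37.5% GC. The number of CpGs was itself part of DMR calling, so the contrast with the flanks is partly set by selection. Repeat-masked bases made up a median of 46.4% of each region, against 38.6% in other DMRs and 27.2% in the flanks, whereas the share masked throughout, 18 regions (27.3%), was near the 29.8% of other DMRs. Read placement was not tested in any region.

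Short motifs of factors that act in macrophages were searched on both strands, as a description only. The IRF letters GAAANNGAA occurred in 14 regions (21.2%), in 16.7% of the 132 flanking windows and in 9.78% of other DMRs. The C/EBP letters TTGCNNAA occurred in 14 (21.2%), against 20.5% of flanks and 11.6% of other DMRs. The AP-1 letters TGANTCA occurred in 7 (10.6%), against 10.6% of flanks and 6.88% of other DMRs, and the STAT letters TTCNNNGAA in 7 (10.6%), against 16.7% and 10.0%. The ETS core GGAAGT, the letters to which the macrophage factor PU.1 binds, occurred in 6 (9.09%), against 9.85% of flanks and 15.1% of other DMRs. One of these is the Cntn5 sequence shown above. By direction in Scnn1b-Tg AMs, the regions with a match were 10 lower and 4 higher for IRF, 12 and 2 for C/EBP, 5 and 2 for AP-1, 6 and 1 for STAT, and 6 and 0 for ETS letters. The shares of the regions were thus near those of their own flanks for C/EBP, AP-1 and ETS letters. They were higher than in the flanks for IRF and lower for STAT letters. The 95% Clopper-Pearson intervals over regions were 12.1 to 33.0% for IRF and 4.37 to 20.6% for STAT letters. Both hold the 16.7% of the flanks, and no test was made. Other DMRs have a higher GC content, and whether this bears on their shares was not tested.

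Other genes for neural adhesion and synapse organisation that the naming rule leaves out were counted for context. Of 56 such genes, among them the teneurins, Robo and Slit genes, Ephrin receptors and receptor phosphatases, 17 had a DMR (30.4%), with 15 regions lower and 5 higher in Scnn1b-Tg AMs. The 75% lower was near the 72.9% of all DMRs, and the density of 0.747 per Mb of territory was near the 0.731 per Mb of the genome. Their median difference was -0.215.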

How the data were processed

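AMs from 3 Scnn1b-Tg and 4 WT samples were profiled by tWGBS. Per the submitters' processing notes, the authors used Trimmomatic 0.36, BWA 0.7.8 (mm10), Picard and MethylDackel. The study's methods state that profiles were smoothed with bsmooth of bsseq and DMRs called with DSS, with at least 3 CpGs, a minimum length and difference and adjusted p-values. Smoothed levels of nearby CpGs are not independent. The smallest deposited region holds 4 CpGs. The tool that annotated the regions was not given in the sources used here.

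Levels in the deposited table are fractions that the authors averaged, across samples within each genotype and across the region's CpGs, and they carry no SD. The authors' own difference and area statistic were not used, and the difference was computed from both levels. The 0 columns of other samples left nothing to exclude. All 1926 regions start and end on a CpG of GRCm38, and 1707 hold the reference number of CpGs.

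Members were taken by symbol, and shares, medians and densities were computed with Python 3.11.15, pandas 2.3.3 and SciPy 1.17.1, with 95% Clopper-Pearson intervals over regions or genes. Territories used curated RefSeq start sites on chromosomes 1 to 19 and X. Functions were tested on simulated data. Genes were named if they had several regions, a promoter, exon or UTR region, a gain, 1 of the 5 largest differences or the largest difference of their family. The part of this rule on the area statistic was not applied, and genes named beyond it were chosen after their values were seen. The members and lists were chosen with earlier results of these data known.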

Additional observations from a re-analysis of the deposited data

How the results depend on the processing

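Of 21 values recomputed under alternatives, 15 stayed within the spread used for comparison. The share of lower regions was 85.5% with an absolute difference of at least 0.2 (all DMRs 77.1%), 82.6% under 200 kb from the TSS (70.2%), 90.9% by RefSeq gene body (65.4%) and 84.6% without Lrrc40 or (added after the data were seen) without Adgrl4. The 65.4% covers 719 DMRs anywhere inside protein-coding genes, exons included. Of the 21 regions inside their own gene, 18 touched no exon. Among other DMRs in introns, 75.1% were lower, a closer comparison. With at least 10 CpGs only 4 regions remained, of which 50% were lower (63.2% of all DMRs) at a median difference of 0.00104, a change of sign that rests on those 4. At that minimum 2.60% of family genes had a DMR (1.01% of all protein-coding genes) and the density was 0.0559 per Mb (0.102 per Mb of genome). By gene body 16.9% of family genes held a DMR, 26 genes of which 11 are overlapping clustered protocadherins (3.18% of all protein-coding genes). The density was 0.550 per Mb of summed gene length, which counts overlapping genes more than once and so gives too low a value. Leaving out regions whose area statistic and difference differ in sign was not run, since the authors' statistics were not used. No paired analysis was possible because the table holds 1 mean per genotype, and for the same reason no replicate could be left out.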
